A study of Mus musculus with 25 samples.

Results

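Macrophages are resident immune cells of the heart, and 10 genes that mark them were followed here in left ventricular RNA: Adgre1, Cd68 and Csf1r as markers of macrophages in general, Cd163, Mrc1 and Lyve1 as markers of resident macrophages, C1qa, C1qb and C1qc as the chains of complement C1q, and Ccr2 as the marker of recruited monocytes and their progeny. They were chosen by symbol from a fixed list, and each gene's level was the sum over its annotated transcripts, so that the members were 10 of the 35969 genes to which transcripts could be assigned. The 25 mice were male littermates, aged 8 to 10 weeks at the start, of a GPx4+/- line that was backcrossed to C57BL6/J, and they were kept for 16 weeks on normal chow (CNTL) or on a high fat high sucrose diet (HFHS). There were 5 mice in each of 5 groups. WT and GPx4+/- littermates on chow were called WT CNTL and GPx4+/- CNTL, those on the diet WT HFHS and GPx4+/- HFHS, and a last group of WT mice on the diet was called WT HFHS + Carnosine, whose drinking water held 80 mM of the dipeptide carnosine from week 7 of the diet. GPx4+/- mice lack 1 allele of the lipid peroxide reductase in every cell of the body and not in macrophages or cardiomyocytes alone, and per the methods the mice were fasted and some were given dextrose before death, which the labels do not tell apart. GPx4+/- HFHS mice given carnosine were not analysed here.

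Cardiac macrophages are a mixture of cells seeded before birth, which maintain themselves by division, and of cells that keep arriving from blood monocytes. CSF1R is the receptor for CSF1 and IL-34 and keeps macrophages alive, ADGRE1 is the surface protein recognised by the F4/80 antibody, and CD68 is a lysosomal glycoprotein. CD163 takes up haemoglobin bound to haptoglobin, MRC1 (CD206) is a mannose receptor, and LYVE1 is a hyaluronan receptor of resident macrophages that lymphatic endothelium also carries. C1QA, C1QB and C1QC assemble into C1q, which opens the classical complement pathway and tags dying cells for uptake, and tissue macrophages are its main source. CCR2 is the receptor for the chemokine CCL2 and brings monocytes out of the marrow and into tissue.

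The C1q chains were the members whose levels moved most alike across mice, and their genes lie side by side on chromosome 4 of GRCm38, all on the minus strand: C1qb at chr4:136880129-136886187, C1qc at chr4:136889804-136893065 and C1qa at chr4:136895917-136898803. The other members lie on chromosomes of their own, among them Cd68 on chromosome 11 (69664213 to 69666153), Cd163 on chromosome 6 (124304656 to 124330527), Lyve1 on chromosome 7 (110850607 to 110863239), Mrc1 on chromosome 2 (14229392 to 14332057), Adgre1 on chromosome 17 (57358691 to 57483527) and Ccr2 on chromosome 9 (124101950 to 124113557), and all 10 members are annotated as protein-coding. The 250 bases before the RefSeq start (GRCm38.p6) are shown for C1qb (minus strand, chr4:136886201-136886450), and beside it for Cd68 (minus strand, chr11:69666171-69666420) and Cd163 (plus strand, chr6:124304401-124304650), 1 gene from each class with a promoter outside the annotated gene. Capitals mark GAGGAA or its complement TTCCTC, the core of the site bound by PU.1, the factor that drives the macrophage program.
C1qb: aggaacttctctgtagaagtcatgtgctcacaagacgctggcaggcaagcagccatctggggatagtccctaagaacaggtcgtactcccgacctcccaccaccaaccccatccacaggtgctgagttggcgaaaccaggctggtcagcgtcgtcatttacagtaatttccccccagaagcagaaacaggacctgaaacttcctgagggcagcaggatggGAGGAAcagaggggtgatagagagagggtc
Cd68: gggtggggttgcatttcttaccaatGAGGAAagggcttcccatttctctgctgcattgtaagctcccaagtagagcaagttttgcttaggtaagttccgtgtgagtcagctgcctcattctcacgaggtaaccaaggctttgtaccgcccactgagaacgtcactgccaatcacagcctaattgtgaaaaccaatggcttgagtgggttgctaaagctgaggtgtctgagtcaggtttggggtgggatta
Cd163: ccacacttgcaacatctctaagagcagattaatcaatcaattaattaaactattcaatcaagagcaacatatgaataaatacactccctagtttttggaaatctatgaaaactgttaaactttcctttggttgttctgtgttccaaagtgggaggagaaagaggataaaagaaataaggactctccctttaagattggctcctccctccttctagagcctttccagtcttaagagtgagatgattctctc

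The core was found on either strand in 4 of the 6 member promoters that the RefSeq table held: C1qb at bases -30 to -25 from the start, C1qc at -193 to -188, Cd68 at -225 to -220 and Mrc1 at 3 places. It occurred in 23.25% of all 32851 promoters of this length. The longer form GAGGAAGT, which contains the core, was found in C1qc alone among the 6 and in 2.44% of all promoters, and TATAAA, the C/EBP site TTGCGCAA and a half-site motif of the interferon-stimulated response element, also read on both strands, were found in none of the 6 and in 12.37%, 0.1644% and 2.977% of all promoters. The windows of C1qc, Mrc1 and Ccr2 overlapped the annotated gene by 151, 22 and 233 bases and are not shown. A match here describes letters and does not show that a factor binds.

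Values are given as scaled TPM, the deposited TPM (a share of all transcript molecules, corrected for transcript length) summed per gene and divided by 1 factor per library (0.864 to 1.16), because mitochondrial transcripts took between 31.3% and 48.7% of the deposited TPM. Gpx4 lay between 251 and 383 scaled TPM in the GPx4+/- libraries and between 591 and 778 in the WT libraries, so every library matched its labelled genotype. The ventricular cardiomyocyte genes that define the tissue summed to between 37449 and 47119 scaled TPM in every library. TPM keep no read depth, so the counting error behind a value is unknown and the errors below are the spread between mice. In bulk tissue more macrophages and more RNA of a gene per macrophage cannot be told apart. In 5 libraries the atrial light chain Myl7 lay above 200 scaled TPM (WT CNTL 3, GPx4+/- CNTL 1 and 2, GPx4+/- HFHS 4 and WT HFHS + Carnosine 2) against at most 99.7 in the others, and in 3 the hepatocyte gene Alb lay above 20 (736 in GPx4+/- CNTL 2, 40.8 in GPx4+/- HFHS 1 and 23.0 in GPx4+/- HFHS 3) against at most 5.26. Diet results of the C1q chains and Lyve1 are given with and without the first set below.

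C1qa was the most abundant member, with a mean of 42.3 scaled TPM over the 25 mice. It measured 38.7, 35.2, 44.3, 32.6 and 28.9 in the 5 WT CNTL mice and 47.6, 41.4, 31.2, 38.4 and 37.0 in the GPx4+/- CNTL mice. It measured 39.3, 51.6, 43.6, 57.9 and 40.4 in the WT HFHS mice, 40.3, 43.6, 40.4, 53.2 and 46.1 in the GPx4+/- HFHS mice, and 46.3, 53.2, 49.0, 38.2 and 39.6 in the WT HFHS + Carnosine mice. The lowest values sat in the CNTL groups and the highest in WT HFHS, and the diet groups overlapped, since the highest WT CNTL mouse lay above 3 of the 5 WT HFHS mice.

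C1qb had nearly the same level, with a mean of 41.0 scaled TPM. On CNTL its means were 35.3 ± 6.47 for WT and 37.8 ± 5.54 for GPx4+/- mice, and on HFHS they were 44.9 ± 8.82 for WT, 42.8 ± 4.35 for GPx4+/- and 44.4 ± 6.19 for the carnosine mice (SD, n = 5 each). C1qc followed at a mean of 33.3, with group means from 29.4 ± 5.29 in WT CNTL to 35.5 ± 6.00 in WT HFHS. The order of the 5 groups was the same for all 3 chains, WT CNTL lowest, then GPx4+/- CNTL, GPx4+/- HFHS, WT HFHS + Carnosine and WT HFHS, and no neighbours in that order were separated beyond the spread between mice. Within a mouse the ratio of C1qa to C1qb stayed between 0.951 and 1.14 and that of C1qa to C1qc between 1.11 and 1.40, on a scale that is corrected for transcript length.

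Csf1r was the most abundant of the general markers, with a mean of 12.4 scaled TPM and values from 8.57 to 17.4. It measured 11.1, 10.5, 14.0, 11.0 and 8.86 in WT CNTL and 8.57, 15.6, 12.7, 15.0 and 11.1 in WT HFHS. Both the lowest and the second highest of all 25 mice were thus WT HFHS mice. Cd68 ran from 3.36 to 8.87 (mean 5.76) and Adgre1 from 1.80 to 4.71 (mean 3.46). For Adgre1 the WT HFHS + Carnosine mice were the closest together, at 3.97, 4.02, 4.15, 3.58 and 4.21, whereas the WT HFHS mice spread over 2.05, 4.71, 3.48, 4.17 and 2.36. Neighbours in the order of group means overlapped for each of these 3 genes.

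Lyve1 was the resident marker with the widest range, from 5.92 to 19.1 scaled TPM. It measured 8.20, 7.47, 12.5, 7.06 and 7.07 in WT CNTL and 19.1, 9.70, 8.38, 7.49 and 8.74 in GPx4+/- CNTL. It measured 8.61, 10.2, 11.3, 17.4 and 11.1 in WT HFHS, 8.67, 12.7, 10.4, 14.5 and 9.46 in GPx4+/- HFHS, and 8.54, 11.5, 11.7, 8.54 and 5.92 in WT HFHS + Carnosine. In both CNTL groups 1 mouse stood far above the other 4, and these were 2 of the 5 libraries with raised Myl7.

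Cd163, the haemoglobin scavenger, was the one member whose means were lower on HFHS than on CNTL in both genotypes. It measured 8.91, 6.62, 10.4, 6.79 and 6.55 in WT CNTL, 12.0, 9.68, 8.48, 6.52 and 6.71 in GPx4+/- CNTL, 5.35, 7.05, 7.97, 9.73 and 6.63 in WT HFHS, and 6.38, 9.08, 6.22, 8.87 and 6.06 in GPx4+/- HFHS. The WT HFHS + Carnosine mice lay at 6.05, 8.87, 10.0, 6.39 and 5.60. The groups overlapped throughout. Mrc1 was the steadiest of the resident markers, from 3.60 to 7.24 with a mean of 5.16, and its group means ran from 4.54 ± 0.889 in WT CNTL to 5.57 ± 1.08 in GPx4+/- HFHS, again with overlapping neighbours.

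Ccr2 was the rarest member, with a mean of 0.801 scaled TPM against 12.4 for Csf1r. It measured 0.739, 0.743, 0.743, 0.746 and 0.265 in WT CNTL, 0.952, 0.569, 0.707, 0.579 and 0.852 in GPx4+/- CNTL, and 0.873, 0.598, 1.15, 0.733 and 0.694 in WT HFHS. It measured 0.946, 0.851, 0.836, 0.772 and 1.46 in GPx4+/- HFHS and 1.09, 1.02, 0.851, 0.472 and 0.780 in WT HFHS + Carnosine. In WT CNTL 4 mice lay close together and WT CNTL 5 lay far below them. The groups overlapped except that all 5 WT CNTL mice lay below all GPx4+/- HFHS mice, which differ from them in both diet and genotype. How many of all genes were so separated was not computed.

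**Figure D1:**
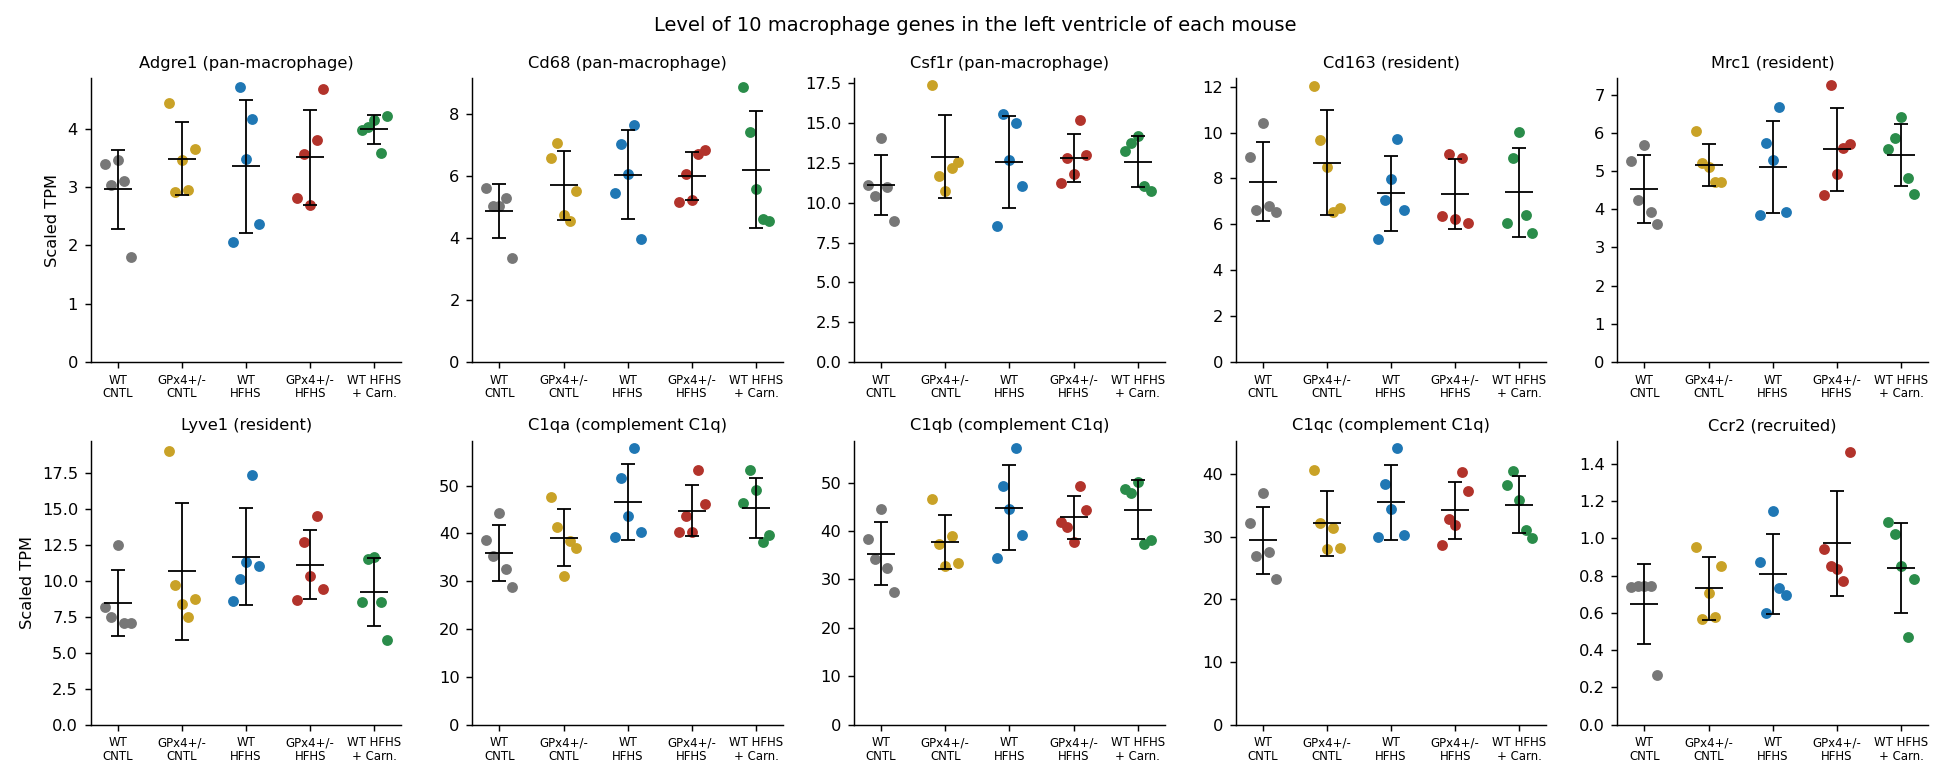
Scaled TPM (y axis, from 0) of each of the 10 members in each of the 25 mice (points) over the 5 groups (x axis), with the group mean (bar) and SD (whiskers, n = 5). C1qa, C1qb and C1qc share 1 order of groups, and the single high mice of Lyve1 in the CNTL groups stand at 12.5 and 19.1.

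The first comparison asked whether the HFHS diet shifted these genes. Over both genotypes C1qa was 21.6% higher on HFHS than on CNTL (95% interval 6.74% to 38.5%) and C1qb was 19.7% higher (4.40% to 37.3%), the largest differences among the C1q chains and general markers, but neither passed the adjusted threshold. The log2 fold change of C1qa was 0.28 ± 0.090 (SE) with an adjusted p of 0.0577, and that of C1qb 0.26 ± 0.095 with an adjusted p of 0.0945 (limma, Benjamini-Hochberg over 11984 genes, 20 mice). C1qc stood at 0.18 ± 0.093 (adjusted p = 0.243, limma). Lyve1 was as far up as C1qa, by 0.28, but with an SE of 0.16 its adjusted p was 0.294 by limma.

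Of the 10 members 9 passed the filter of a mean of at least 1 scaled TPM, and 0 of these 9 were called at an adjusted p under 0.05 in any comparison, against 8.33% of all genes tested for diet over both genotypes. At an unadjusted p under 0.05, 2 of the 9 were past the threshold for diet over both genotypes (C1qa at 0.00534 and C1qb at 0.0127), as were 2933 of all 11984 genes. The log2 fold changes of the 9 had a median of 0.18 over both genotypes against a median of 0.00 over all genes, and 8 of the 9 lay above 0 against 49.1% of all genes. The 9 varied together across mice, so their signs are not independent of each other, here and in the comparisons that follow. Cd163 was the one below 0, at -0.15 ± 0.13 (adjusted p = 0.490, limma), with an interval from -25.1% to 7.78%. Adgre1 (0.06 ± 0.14), Csf1r (0.08 ± 0.11), Mrc1 (0.12 ± 0.10) and Cd68 (0.18 ± 0.11) all had intervals on the log2 scale that included 0.

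Whether C1qa and C1qb passed depended on which libraries and genes entered. Leaving out the libraries with Myl7 above 200 was a choice made after the data were seen. In this fit they were WT CNTL 3, GPx4+/- CNTL 1 and 2 and GPx4+/- HFHS 4, mostly CNTL mice. Without them C1qa stood at 0.35 (adjusted p = 0.0211, limma), Lyve1 at 0.44 (adjusted p = 0.0303) and C1qb at 0.33 (adjusted p = 0.0462), so that 3 members passed. C1qc stood at 0.25 (adjusted p = 0.0868), its lowest under any alternative. Over all alternatives 684 to 1104 of all genes were called for this comparison, and the share in this fit is not given here. With the filter raised to a mean of 5 scaled TPM, C1qa alone passed at an adjusted p of 0.0495 by limma. Leaving out 1 mouse at a time, a call was gained without WT CNTL 3 (C1qa 0.32, adjusted p = 0.0283, and C1qb 0.30, adjusted p = 0.0459), WT HFHS 1 (0.31, adjusted p = 0.0427, and 0.30, adjusted p = 0.0445), GPx4+/- CNTL 1 (C1qa 0.32, adjusted p = 0.0341) and WT HFHS 5 (C1qa 0.31, adjusted p = 0.0488) by limma, and over all 20 such fits the adjusted p of C1qa ran from 0.0283 to 0.105.

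In WT mice alone the diet difference was 0.37 ± 0.13 for C1qa (adjusted p = 0.157, limma), 0.34 ± 0.13 for C1qb, 0.27 ± 0.13 for C1qc and 0.44 ± 0.22 for Lyve1. Here 1.18% of all genes were called, and 2 of the 9 members (C1qa and C1qb) were past an unadjusted p of 0.05, as were 1979 of all genes. In GPx4+/- mice the same genes stood at 0.20 ± 0.13, 0.18 ± 0.13, 0.09 ± 0.13 and 0.12 ± 0.22, with 3.34% of all genes called and no member at an unadjusted p under 0.05. Single mice moved these values: leaving out 1 mouse at a time, Lyve1 in GPx4+/- mice ran from 0.02 (without GPx4+/- CNTL 4) to 0.34 (without GPx4+/- CNTL 1), C1qc from 0.03 (without GPx4+/- HFHS 4) to 0.18 (without GPx4+/- CNTL 1) and C1qa from 0.12 (without GPx4+/- CNTL 3) to 0.27. In WT mice Lyve1 ran from 0.29 (without WT HFHS 4) to 0.58 (without WT CNTL 3). Without the libraries with raised Myl7 C1qa, C1qb, C1qc and Lyve1 stood at 0.45, 0.42, 0.36 and 0.58 in WT mice (adjusted p 0.0539 to 0.111, limma) and at 0.26, 0.23, 0.15 and 0.30 in GPx4+/- mice (adjusted p 0.306 to 0.586, limma). In that fit the 9 members still had a smaller or more negative diet difference in GPx4+/- mice, by 0.06 (Mrc1) to 0.28 (Lyve1), with adjusted p values from 0.696 to 0.951 (limma). All 9 members had a smaller or more negative diet difference in GPx4+/- than in WT mice, by 0.05 (Mrc1) to 0.32 (Lyve1) on the log2 scale, yet the test of that difference gave adjusted p values from 0.835 to 0.965 (limma), the interval of each included 0, and 0% of all genes were called, with 856 at an unadjusted p under 0.05. Over all genes 48.8% lay above 0 in this test. The sign for Mrc1 flipped with quantile normalization, to 0.000415, and without the 3 libraries with raised Alb those of Adgre1, Cd68, Cd163 and Mrc1 turned to between 0.0054 and 0.10.

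The GPx4+/- values near 0 turned on the scaling. With the TPM as deposited, the median of all genes moved to -0.10 for diet in GPx4+/- mice, the calls over all genes turned from 65.25% to 8.73% higher, and Adgre1, Cd68, Csf1r, Mrc1 and C1qc took negative signs. Relative to that median these 5 stood between 0.00028 and 0.09. Over both genotypes the share of higher calls among all genes went from 56.2% to 20.1% with the TPM as deposited, while C1qa and C1qb stayed above 0.

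Ccr2 did not reach the filter and was compared by a two-sided exact permutation test on log2 values. Its mean was 0.647 in WT CNTL and 0.809 in WT HFHS (exact permutation p = 0.397), and 0.732 in GPx4+/- CNTL and 0.974 in GPx4+/- HFHS (exact permutation p = 0.135), where 5 mice against 5 cannot go below 0.00794. In a limma fit without the filter its diet difference over both genotypes was 0.23 ± 0.11, with an adjusted p of 0.361. The 95% interval ran from -0.00766 to 0.460 on the log2 scale. With 0.5 added to every value, this understates the relative change of so low a gene. The differences pointed the same way as those of C1q, and GPx4+/- HFHS 5, at 1.46, was the highest mouse of all.

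**Figure D2:**
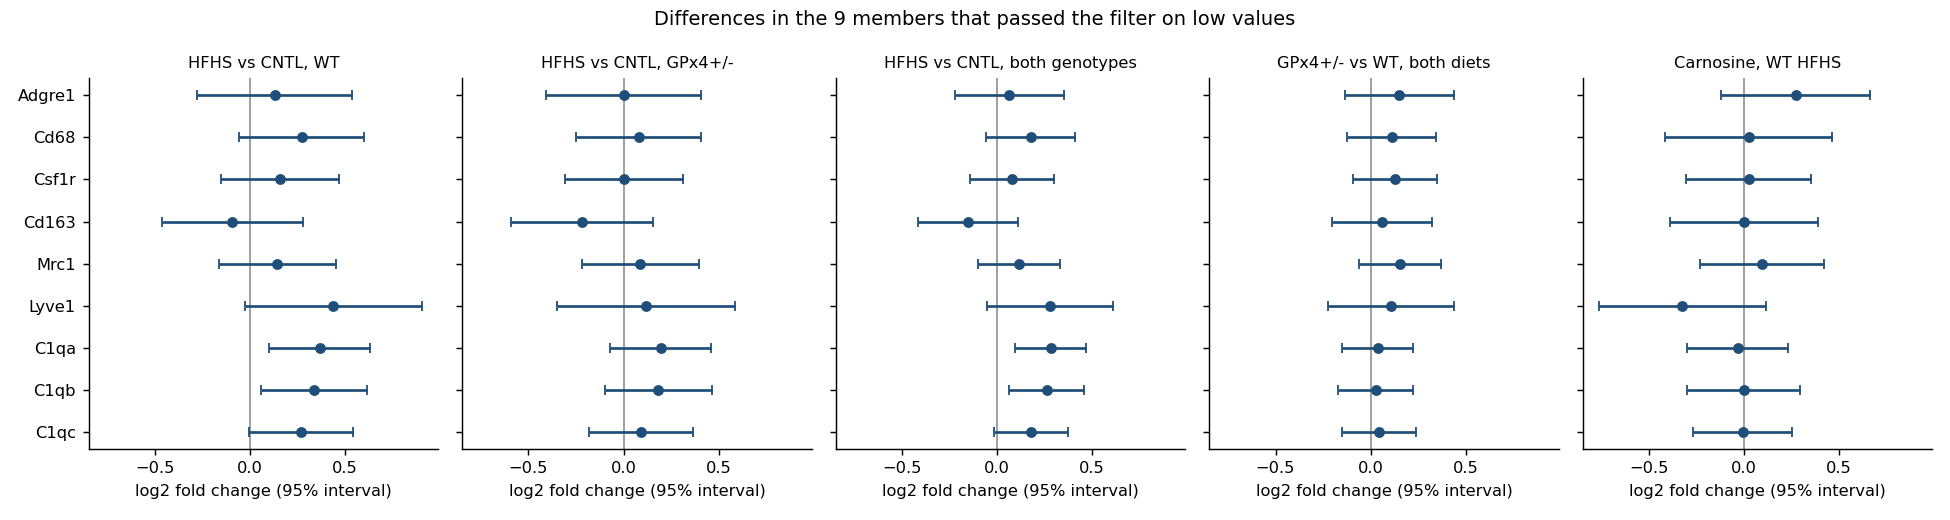
Log2 fold change (x axis, points) with 95% interval (whiskers) of the 9 members tested by limma, 1 panel per comparison. C1qa and C1qb are the members whose intervals lie above 0, in WT mice (0.37 and 0.34) and over both genotypes (0.28 and 0.26), and every interval for genotype and carnosine includes 0.

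The second comparison set GPx4+/- against WT mice over both diets. All 9 members tested lay above 0, by 0.03 (C1qb) to 0.15 (Mrc1) on the log2 scale, against 49.6% of all genes, and all had an adjusted p of 1.00 by limma, where 0.0584% of all genes were called. The interval of Mrc1 ran from -4.29% to 29.3% and that of C1qb from -11.2% to 16.8%. Without the libraries with raised Myl7 the differences of Lyve1, Cd163, C1qa, C1qb and C1qc turned to between -0.03 and -0.01, so that the direction for these 5 was not settled, while Mrc1 stayed between 0.11 and 0.23 under every alternative. Within the CNTL diet the 9 ranged from 0.10 to 0.27 and within HFHS from -0.05 to 0.13. Ccr2 was at 0.647 and 0.732 in the 2 CNTL groups (exact permutation p = 0.587) and at 0.809 and 0.974 in the 2 HFHS groups (exact permutation p = 0.333).

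The third comparison asked whether carnosine changed these genes in WT mice on HFHS. No member differed beyond the spread between mice, and 0% of all 11984 genes were called by limma, with 505 at an unadjusted p under 0.05. C1qa (-0.03 ± 0.12), C1qb (-0.00 ± 0.13), C1qc (-0.01 ± 0.12) and Cd163 (-0.00 ± 0.18) were centred on 0, and the interval of C1qa ran from -18.9% to 17.5%. The 2 members farthest from 0 pointed apart: Adgre1 at 0.27 ± 0.18 (adjusted p = 0.947, limma) and Lyve1 at -0.33 ± 0.20 (adjusted p = 0.947, limma), with an interval from -41.2% to 8.24%. Leaving out 1 mouse at a time, Adgre1 ran from 0.13 (without WT HFHS 1, and 0.18 without WT HFHS 5) to 0.39, and Lyve1 from -0.42 to -0.18 (without WT HFHS 4, and -0.19 without WT HFHS + Carnosine 5). The signs of Cd68 and Csf1r, both at 0.02, turned with the TPM as deposited, where the median of all genes was -0.07. Ccr2 had means of 0.809 and 0.843 (exact permutation p = 0.849).

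In none of the 50 comparisons of 1 member between 2 groups of 5 were the groups free of overlap, where 4.51% of all genes tested did not overlap for diet in WT mice, 4.47% for diet in GPx4+/- mice, 0.926% for genotype on CNTL, 0.726% for genotype on HFHS and 0.609% for carnosine. Of the other pairs of groups, 2 did not overlap, neither of them tested: WT CNTL lay below GPx4+/- HFHS for Ccr2 and below WT HFHS + Carnosine for Adgre1 (at most 3.46 against at least 3.58). The share of all genes free of overlap was not computed for these pairs, so these 2 cannot be set against it.

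All 10 members had a higher median in the libraries with raised atrial genes than in the others, and all 10 overlapped between them. The summed level of the 5 atrial genes (Myl7, Myl4, Sln, Nppa and Bmp10, all 5 detected) ran from 127 to 4566 scaled TPM in WT CNTL, 130 to 7347 in GPx4+/- CNTL, 30.6 to 276 in WT HFHS, 46.8 to 2695 in GPx4+/- HFHS and 91.9 to 580 in WT HFHS + Carnosine. In the 5 libraries with Myl7 above 200, Cd163 lay between 8.87 and 12.0 (median 9.68) against a median of 6.62 in the other 20, and Lyve1 between 9.70 and 19.1 (median 12.5) against a median of 8.64. In the other 20 libraries Cd163 reached 10.0, above 3 of the 5, and Lyve1 reached 17.4, above 4 of the 5. The medians were 47.6 and 40.0 for C1qa, 46.6 and 38.6 for C1qb, and 40.3 and 31.2 for C1qc. Among the general markers they were 14.0 and 11.5 for Csf1r, 6.70 and 5.37 for Cd68, and 3.80 and 3.47 for Adgre1. The third resident marker, Mrc1, had medians of 5.67 and 4.86, and its highest value in the other 20 libraries (7.24) lay above all 5 (at most 6.06). In 3 of the 4 groups that held such a library it had the group's highest Lyve1 and Csf1r, in all 4 groups the highest C1qa and C1qc, in 3 the highest C1qb, in 2 the highest Cd163, Mrc1 and Adgre1, and in 1 the highest Cd68 and Ccr2. Ccr2 had medians of 0.772 and 0.763. The part of atrial tissue in the member levels was not tested.

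WT HFHS 4 was high without Myl7, at 9.51, and it held the highest C1qa (57.9) and C1qb (57.1) of all mice and a Lyve1 of 17.4. It also had the highest level of Cnn1, a smooth muscle gene, at 26.6 against 1.04 to 10.1 in the other libraries. The 5 smooth muscle markers, all above 0 for diet with a median of 0.61, summed to 66.2 to 135 in WT CNTL and 100.4 to 528 in WT HFHS, and 0 of the 5 were called (Acta2 0.61, adjusted p = 0.117 and Tagln 0.51, adjusted p = 0.252, limma). Their part in the C1q difference was not tested, and without WT HFHS 4 C1qa stood at 0.24 (adjusted p = 0.0984, limma).

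**Figure D3:**
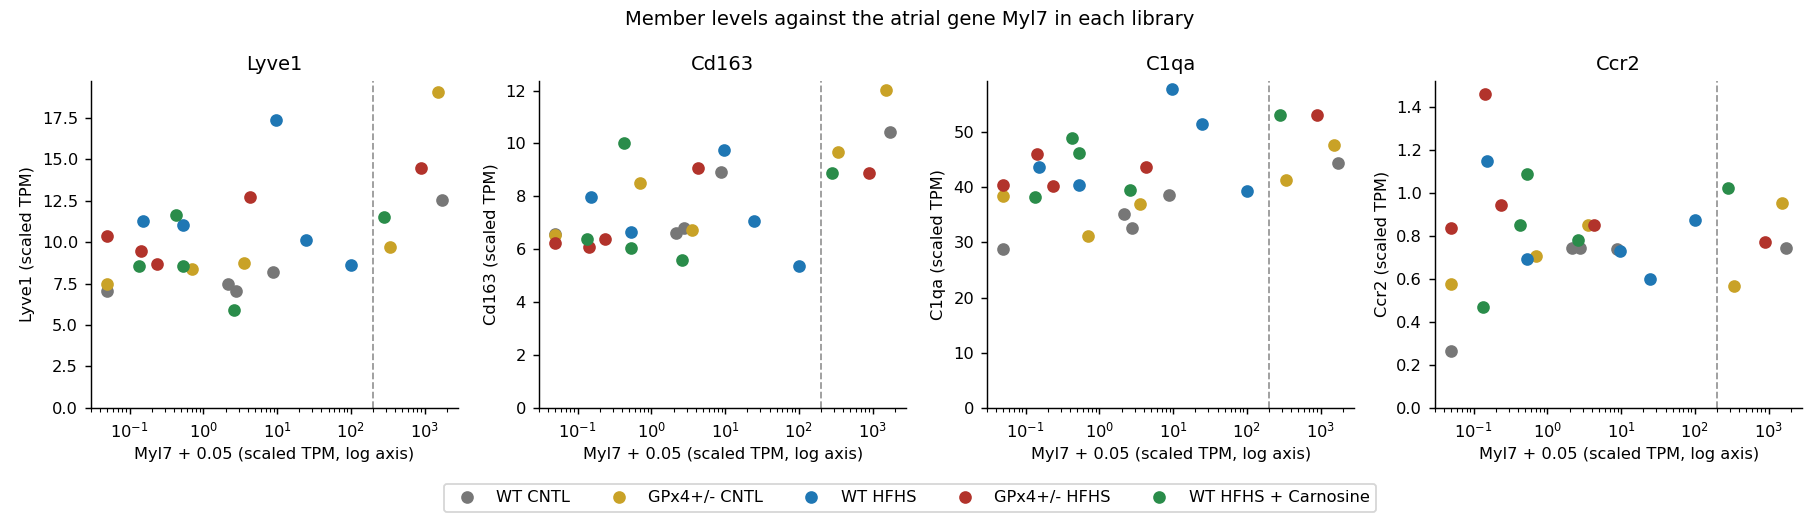
Scaled TPM of Lyve1, Cd163, C1qa and Ccr2 (y axes) against Myl7 plus 0.05 (x axis, log scale, so that libraries at 0 sit at the left edge) in the 25 libraries, coloured by group, with a dashed line at 200. The 5 libraries to the right of the line hold Lyve1 of 9.70 to 19.1 and Cd163 of 8.87 to 12.0, while Ccr2 there spans 0.569 to 1.02.

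Other genes of the macrophage were read from lists, whose counts stand against 8.33% of all genes called and 49.1% above 0 for diet over both genotypes. Of 15 further general macrophage and myeloid genes 14 were tested, 13 of them above 0 for diet over both genotypes with a median of 0.13, and 0 were called. The most abundant, Lyz2 (lysozyme) and Tyrobp (an adaptor of activating receptors), stood at 0.05 ± 0.10 and 0.14 ± 0.086. Of 14 further resident macrophage genes 12 were tested and 1 rose on HFHS: Fcrls, an Fc receptor-like gene of tissue macrophages, by 0.39 ± 0.10 (adjusted p = 0.0234, limma). A share of 1 in 12 is near that of all genes. The 12 genes, Fcrls included, had a median of 0.14 with 10 of 12 above 0. Of 16 monocyte and recruited macrophage genes only 8 passed the filter, 5 of them above 0 with a median of 0.09, and 0 were called. The 2 most abundant were Cd9 at 0.28 ± 0.13 and Fn1 (fibronectin, which fibroblasts also make) at 0.26 ± 0.17. In the fit without the filter, where 2.79% of 25881 genes were called, 6 of the 8 genes left out of this list lay above 0 and 1 was called: Trem2, a lipid-sensing receptor of macrophages, at 0.40 ± 0.088 (adjusted p = 0.0202, limma). Trem2 had means of 0.661 in WT CNTL and 1.23 in WT HFHS mice, which did not overlap, and of 0.748 and 0.950 in GPx4+/- mice. Plac8 stood at 0.48 (adjusted p = 0.0743), Itgax at 0.26 (adjusted p = 0.176) and Il1b at -0.33 (adjusted p = 0.176) by limma.

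Among ligands, Il34, which binds CSF1R, rose on HFHS by 0.29 ± 0.076 over both genotypes (adjusted p = 0.0229, limma) and by 0.47 in WT mice alone (adjusted p = 0.0368, limma), while the other ligand, Csf1, stood at 0.18 ± 0.084 (adjusted p = 0.183, limma). The 3 CCR2 ligands tested of 4 all lay above 0, at 0.26 for Ccl2 and Ccl12 and 0.43 for Ccl8, with 0 called. All 7 classical complement genes tested of 8 lay above 0 with a median of 0.31, and 1 of the 7 was called: C1s1, the protease of the C1 complex that C1r activates, rose by 0.34 ± 0.093 (adjusted p = 0.0286, limma). Its partner C1ra (0.32, adjusted p = 0.0891), the C1 inhibitor Serping1 (0.31, adjusted p = 0.0864) and C3 (0.38, adjusted p = 0.203) did not pass by limma. C1s1, C1ra, Serping1 and C3 are also made by fibroblasts, and of the 5 fibroblast markers all lay above 0 with a median of 0.31 and 1 rose, Pdgfra by 0.29 ± 0.088 (adjusted p = 0.0472, limma). Their summed level was 783 to 1574 in WT CNTL, 736 to 1347 in GPx4+/- CNTL, 970 to 1647 in WT HFHS and 896 to 1662 in GPx4+/- HFHS, and the part of fibroblasts in the C1s1 difference was not tested.

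The 6 MHC class II genes tested of 7 all lay above 0 for diet with a median of 0.14 and 0 were called (Cd74 0.14 ± 0.14, H2-Aa 0.14 ± 0.14). The 7 genes of haemoglobin, haem and iron handling, which include the carriers haptoglobin (Hp) and haemopexin (Hpx), had a median of -0.01 with 0 called, led in abundance by the ferritin chains Fth1 (0.04 ± 0.039) and Ftl1 (-0.00 ± 0.065). For genotype, for the difference between genotypes and for carnosine 0 genes of these lists were called, and for diet in WT mice Il34 alone was. Over both genotypes Fcrls and Il34 kept an adjusted p under 0.05 whichever mouse was left out, and C1s1 lost it without WT CNTL 2, WT CNTL 5 or GPx4+/- HFHS 5 (adjusted p 0.0513 to 0.0570, limma). Pdgfra lost it in 14 of the 20 fits (up to 0.0840) and kept it only without WT CNTL 3, GPx4+/- CNTL 1 or 3, WT HFHS 1 or 3, or GPx4+/- HFHS 3. Il34 in WT mice lost it without any of WT CNTL 1, 2, 4 and 5 and WT HFHS 1 to 4 (up to 0.106), and with protein-coding transcripts alone it stood at 0.18 in WT mice (adjusted p = 0.477, limma) and 0.14 over both genotypes (adjusted p = 0.319, limma). With the TPM as deposited Fcrls, Il34, C1s1 and Pdgfra did not pass (adjusted p 0.0806 to 0.180, limma). Without the filter on low values none of these calls was kept (adjusted p 0.0533 to 0.104, limma), and without raised Alb Pdgfra did not pass (adjusted p = 0.0647, limma).

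**Figure D4:**
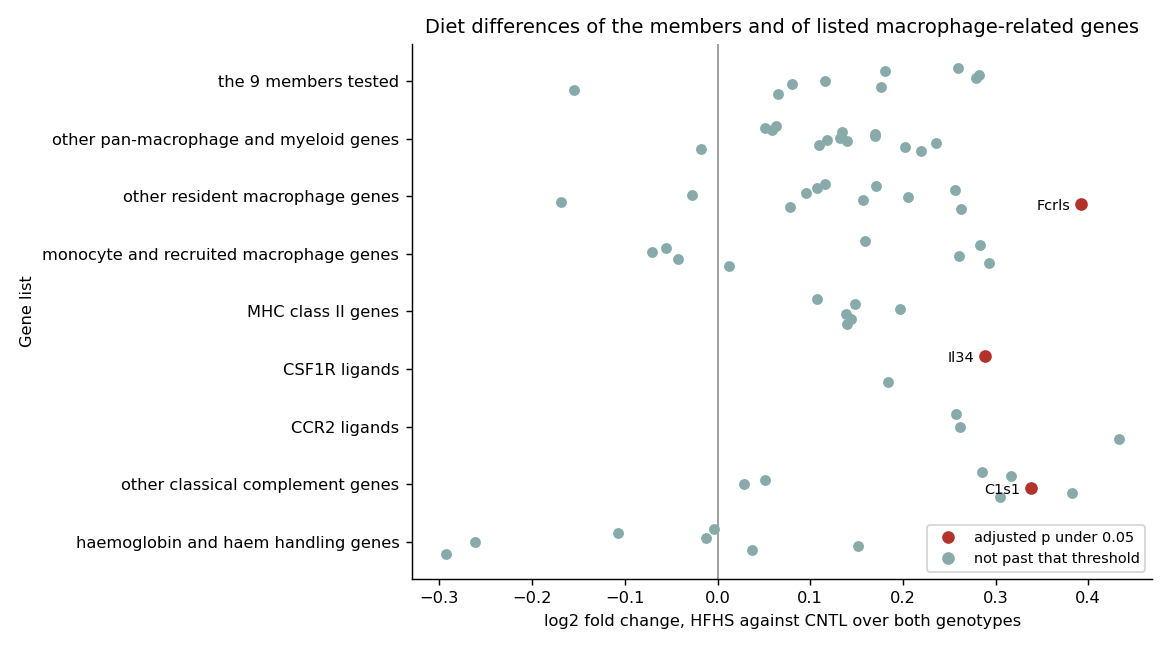
Log2 fold change for HFHS against CNTL over both genotypes (x axis) of the 9 members tested and of the listed genes of 8 macrophage-related lists (rows), 1 point per gene. Fcrls, Il34 and C1s1, at 0.39, 0.29 and 0.34, are the genes with an adjusted p under 0.05, and Cd163 is the member below 0.

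Markers of other leukocytes differed in level. The 8 lymphocyte markers summed to at most 3.19 scaled TPM and none passed the filter (Cd79a had a mean of 0.635 and Cd4 of 0.570). Of the 6 neutrophil markers S100a9 (mean 2.37 scaled TPM, log2 fold change -0.40) and S100a8 (1.28 and -0.56) were tested, and Ly6g and Camp had means of 0.016 and 0.012. Of the 5 dendritic cell markers Zbtb46 (mean 4.92 scaled TPM, above the 3.46 of Adgre1, log2 fold change -0.02) and Clec9a (1.86 and 0.12) were tested, and of the 5 Kupffer cell markers Vsig4 (-0.04) alone, with Marco at a mean of 0.058. Clec4f, below the filter at a mean of 0.900, was called in the fit without it at 0.86 ± 0.20 (adjusted p = 0.0305, limma), the only one of the 4 Kupffer cell markers left out that was. Its means were 0.352 in WT CNTL and 1.19 in WT HFHS mice, which did not overlap, and 0.650 and 1.26 in GPx4+/- mice, which did. The 6 lymphatic endothelium markers, which bear on Lyve1, all lay above 0 for diet with a median of 0.26 and 0 called (Ccl21a 0.27 ± 0.17, Prox1 0.04 ± 0.063), and summed to 31.2 to 62.7 in WT CNTL, 37.4 to 48.8 in GPx4+/- CNTL, 43.8 to 68.4 in WT HFHS and 37.5 to 65.5 in GPx4+/- HFHS. For diet in WT mice alone 5 of the 6 lay above 0 (50.1% of all genes) with a median of 0.33. In GPx4+/- mice all 6 did (49.6% of all genes) with a median of 0.11. For carnosine 1 of the 6 lay above 0 (49.6% of all genes) with a median of -0.25. The part of lymphatic endothelium in the Lyve1 level was not tested. Blood (Hbb-bs 0.01, Hba-a1 0.02), endothelial (Cdh5 0.09, Pecam1 0.14), hepatocyte (Alb -0.44, Apoa2 -0.36), adipocyte (Cfd -0.42, and Adipoq untested at a mean of 0.548) and atrial lists (Nppa -1.95, Myl7 -1.26) had 0 called for diet, and of the 5 ventricular genes Myh6 fell by 0.17 on the log2 scale (adjusted p = 0.0314, limma), a call that was lost without WT CNTL 5, GPx4+/- CNTL 1 or 4, WT HFHS 3 or 4, or GPx4+/- HFHS 2 or 5 (up to 0.0617), with quantile normalization (-0.12, adjusted p = 0.212, limma) and without the filter (adjusted p = 0.209, limma).

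Across the 25 mice the members varied together, Ccr2 least closely. On the log2 scale and after removing the group means, Pearson r was 0.93 to 0.95 between the 3 C1q chains (Spearman rho 0.907 to 0.943), 0.89 between Cd163 and Lyve1, and 0.44 to 0.95 over the 36 pairs without Ccr2. Between Ccr2 and the other 9 it was 0.12 (Cd163) to 0.52 (Cd68), a range that overlaps that of the 36 pairs. The medians were 0.31 with Ccr2 and 0.74 without it. Ccr2 was the member with the lowest level, and the counting error behind its values is unknown. Without the 2 mice farthest from the centre on Cd163, r between Cd163 and Lyve1 was 0.88. These are descriptions over 25 mice, in each of which the members share a library, its depth and its tissue makeup.

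**Figure D5:**
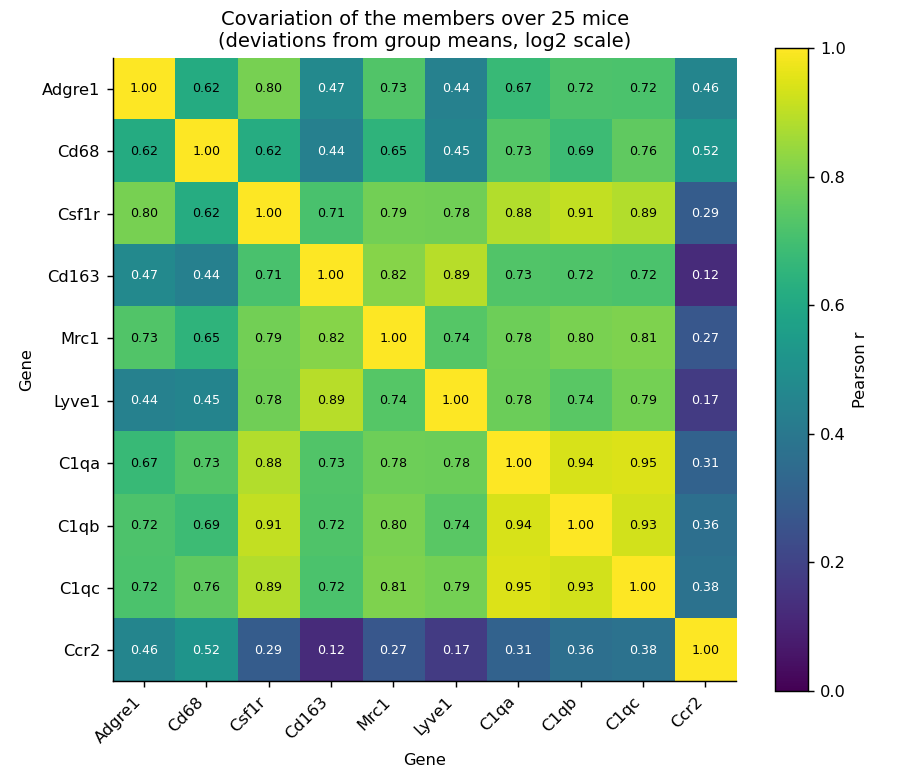
Pearson r between members (both axes) over the 25 mice, from deviations from the group means on the log2 scale, with colour from 0 to 1. C1qa, C1qb and C1qc form the tightest block at 0.93 to 0.95, Cd163 and Lyve1 reach 0.89, and the lowest value, 0.12, is between Ccr2 and Cd163.

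Among the genes outside the list that most resembled the mean of the 9 members over the 25 mice (Pearson r of log2 values) were Maf (0.92), a transcription factor of resident macrophages, followed by Antxr1, Anxa1, Stab1, Col14a1, Axl, P2ry6, Cbr2 and Ncf1 (0.83 to 0.86). Closest to the C1q chains were Ifitm2 (0.90), Ifi27l2a (0.89), App, Col1a2 and Pcolce. Closest to Lyve1 were Gpr182 (0.91), a receptor of lymphatic and sinusoidal endothelium, Ptgs1, Lgals3 and Eef1a1, and closest to Ccr2 were Apbb1ip (0.73), Ighm, Cybb, Mpeg1 and Metrnl (0.70).

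The members differed in which transcripts carried their TPM. C1qa and C1qb have 1 annotated transcript each in the table, and 1 protein-coding transcript held 99.4% of C1qc and 98.8% of Mrc1. An 802-base transcript of Lyve1 that is annotated as a retained intron held 36.3% of the gene's level, between 19.1% and 51.2% in single mice, and a 2779-base retained intron transcript held 21.8% of Cd163. Ccr2 was spread over 4 protein-coding transcripts, of which the leading one held 57.1%. With protein-coding transcripts alone, a choice made after the data were seen, no member was called in any comparison.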

How the data were processed

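Left ventricular polyA RNA of 25 mice was sequenced (TruSeq stranded mRNA, paired reads). The submitters' processing notes name kallisto 0.43.1, sleuth 0.30.0 and GRCm38, whereas the methods describe STAR, featureCounts and DESeq2; the deposited table holds TPM per transcript, in which the authors pooled no mice and which keep no counts. Columns were assigned by library name. Transcripts were summed per gene by GENCODE M21 (116772 of 119215 matched). TPM were divided by 1 median-of-ratios factor per library over 11879 genes. Genes with a mean of at least 1 scaled TPM were tested on log2(scaled TPM + 0.5) with limma 3.58.1 (trend, R 4.3.3), 20 mice in 1 fit and carnosine in 10, with Benjamini-Hochberg adjustment. A log2 fold change on this scale, and a percentage taken from it, understates changes of low genes. Ccr2 was compared by exact permutation. Group SDs are over 5 mice. The fit was tested on simulated data. The members and lists were chosen with earlier results of these data known. Named genes were the 10 members, list genes with an adjusted p under 0.05, otherwise the 2 most abundant of a list, and the genes of highest correlation (some of these are not reported here); Ccl12, C1ra, Serping1, C3, Ly6g, Camp, Marco, Cnn1, Hp, Hpx, Clec4f, Trem2, Plac8, Itgax and Il1b were named after their values were seen. Alternatives were pseudocounts 0.1 and 1, no filter, a mean of 5, TPM as deposited, quantile normalization, a replicate block, all 25 mice, each mouse left out, and 3 added after the data were seen (without raised Myl7, without raised Alb, protein-coding transcripts).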

Additional observations from a re-analysis of the deposited data

Results flagged for a closer look

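In 7 of 50 sets of 5 mice (10 members in 5 groups) the highest or the lowest mouse stood farther from its nearest neighbour than Dixon's critical value allows, that is by more than 0.71 of the range of the group. Chance alone flags about 1 in 20 groups, or 2.5 of 50.

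WT CNTL 5 was the lowest mouse of its group for 3 members, at a gap of 0.741 of the range for Adgre1 (1.80 scaled TPM, next 3.03), 0.741 for Cd68 (3.36, next 5.03) and 0.985 for Ccr2 (0.265, next 0.739). The values of 1 mouse share a library and are not independent of each other. Lyve1 was high in WT CNTL 3 (gap 0.793, 12.5 scaled TPM) and in GPx4+/- CNTL 1 (gap 0.810, 19.1 scaled TPM), and Csf1r was high in GPx4+/- CNTL 1 (gap 0.723, 17.4 scaled TPM). Both of these libraries held raised Myl7, at 1707 and 1499 scaled TPM, and the part of atrial tissue in these values was not tested. Ccr2 was high in GPx4+/- HFHS 5 (gap 0.749, 1.46 scaled TPM, next 0.946).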

How the results depend on the processing

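The log2 fold changes of the members kept their direction and their side of an adjusted p of 0.05 in 1485 cases over the alternatives, passed it newly in 10 and changed sign in 74, and each sign change was of a value that was not called. The calls of named list genes were kept in 136 cases and lost in 49. Counts stayed within 1.5 times in 323 cases and moved in 27. The cause of these changes was not tested. Without the filter on low values 43 genes were called for diet in WT mice (142 in the analysis reported) and 235 for diet in GPx4+/- mice (400), with the TPM as deposited 38 for diet in WT mice, and without the libraries with raised Alb 94 and 168. A mean of at least 5 left 4 genes for genotype (7) and called 1 member for diet over both genotypes, against 3 without raised Myl7. Leaving out 1 mouse at a time gave 36 to 202 calls for diet in WT mice (over 1.5 times fewer without WT CNTL 1, 2, 4 or 5 or WT HFHS 2 to 5), 191 to 484 for diet in GPx4+/- mice (over 1.5 times fewer without GPx4+/- CNTL 1, 3 or 4 or GPx4+/- HFHS 1 or 5), 0 to 1 for the difference of the diet effect (1 without WT CNTL 3), and 0 to 2 members called for diet over both genotypes.

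For diet in WT mice Cd163 turned to 0.0102 without raised Myl7. For diet in GPx4+/- mice Adgre1 turned to -0.000976 with a pseudocount of 0.1, and with the TPM as deposited Adgre1 stood at -0.0944, Cd68 at -0.0196, Csf1r at -0.101, Mrc1 at -0.0111 and C1qc at -0.0147. For genotype without raised Myl7 Cd163 stood at -0.0331, Lyve1 at -0.0103, C1qa at -0.0200, C1qb at -0.00684 and C1qc at -0.00639. For the difference of the diet effect, without raised Alb Adgre1 stood at 0.00538, Cd68 at 0.00559, Cd163 at 0.0410 and Mrc1 at 0.0987, with protein-coding transcripts Cd68 at 0.0823 and with quantile normalization Mrc1 at 0.000415, and the median of all genes moved to -0.107 with the TPM as deposited. For carnosine Cd68 and Csf1r stood at -0.0452 and -0.0479 with the TPM as deposited and at -0.0468 and -0.00984 without raised Myl7, and Cd163 at 0.00666 with quantile normalization. No library of that comparison had raised Alb.

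Leaving out 1 mouse at a time, these values changed sign. For diet in WT mice Adgre1 ran from -0.0108 to 0.265 and Cd163 from -0.194 to 0.0102. In GPx4+/- mice Adgre1 ran from -0.0979 to 0.0819, Csf1r from -0.0578 to 0.112 and Mrc1 from -0.00366 to 0.163, and over both genotypes Adgre1 from -0.00527 to 0.133. For genotype Lyve1 ran from -0.00420 to 0.181, C1qb from -0.0188 to 0.0716 and C1qc from -0.00168 to 0.0853. For the difference of the diet effect Adgre1 ran from -0.265 to 0.0110 and Mrc1 from -0.147 to 0.0421. For carnosine Cd68 ran from -0.108 to 0.114, Csf1r from -0.101 to 0.105, Cd163 from -0.114 to 0.0996, C1qa from -0.0953 to 0.0468, C1qb from -0.0920 to 0.0886 and C1qc from -0.0649 to 0.0740.

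The replicate numbers were shared between groups without marking a shared origin: the deviations of mice with the same number had a median correlation of -0.00242 over 50 pairs, against 0.0239 for other numbers, and 5 of 25 mice correlated best with their own number. A replicate block gave 68 calls for diet in WT mice, 306 in GPx4+/- mice, 876 over both genotypes, 7 for genotype and 0 for the difference and for carnosine, with 0 members called. Under it Il34 in WT mice (adjusted p = 0.0709, limma) and Pdgfra (adjusted p = 0.0704, limma) did not pass, and no other call of a member or of the named list genes changed. TPM keep no depth, so what counting error limits, above all for Ccr2, is unknown.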
